A study of Homo sapiens with 4 samples.

Results

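Cytoplasmic ribosomal protein genes encode the proteins of the cytoplasmic ribosome, the machine that makes nearly every protein of the cell. The RPL and RPLP genes encode proteins of the large ribosomal subunit, and the RPS genes and FAU encode proteins of the small subunit. Of 56 genes listed (36 of the large and 20 of the small subunit), 48 were measured on a transcript cluster, the array's unit of several probes per transcript, whose platform annotation gives that gene as its only symbol. They comprised 30 large and 18 small subunit genes, represented on 72 of the 19460 single-symbol clusters in the table. The other 8, RPL6, RPL9, RPL13A, RPL15, RPL37, RPLP0, RPS10 and RPS18, had no cluster of their own. Where a gene had several clusters, the one with the highest mean stands for it unless stated otherwise.

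The arrays were hybridised with total RNA of OVCAR-3, an established human ovarian epithelial cancer cell line grown with fetal bovine serum. In 2 arrays the cells had been given a vector lacking H1.3 and in 2 arrays they overexpressed human H1.3, a linker histone, per the labels; no other treatment, time point or clone is given, and the (H) in the titles of the H1.3 arrays is not explained. The replicates are called biological, but nothing says that they came from separate transfections, so p-values reflect no more than how these arrays scatter. Each array measures a whole culture, so less RNA in every cell and less RNA in a part of the cells cannot be told apart.

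Most ribosomal proteins are needed in equal numbers, and ribosomal protein genes are known for being expressed together at a high level. Their mRNAs typically begin with a C and an unbroken run of pyrimidines, the 5′ terminal oligopyrimidine (TOP) tract, through which the growth regulator mTORC1 and the RNA-binding protein LARP1 control their translation and stability. Free RPL5 and RPL11, bound to 5S ribosomal RNA, are known to restrain the p53 ligase MDM2 when ribosome assembly fails.

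The start sites of genes whose values are described below are shown to make this shared feature visible. Each run gives 15 bases on either side of the RefSeq start in GRCh38.p14, on the gene's strand, with the pyrimidine tract in capitals.
RPL10A (chr6:35468386-35468415, plus strand): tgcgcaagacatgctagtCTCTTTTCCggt
RPL29 (chr3:51995881-51995910, minus strand): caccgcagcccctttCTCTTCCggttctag
RPL26 (chr17:8383179-8383208, minus strand): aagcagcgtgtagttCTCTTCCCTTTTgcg
RPLP1 (chr15:69452803-69452832, plus strand): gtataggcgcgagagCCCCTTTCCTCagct
RPL24 (chr3:101686704-101686733, minus strand): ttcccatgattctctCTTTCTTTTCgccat
RPL32 (chr3:12841551-12841580, minus strand): gggttacgacccatcagCCCTTgcgcgcca
RPL10 (chrX:154398050-154398079, plus strand): tttttccactctcagaaatatacgtctgtc
RPS25 (chr11:119018329-119018358, minus strand): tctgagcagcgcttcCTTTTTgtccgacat
RPS24 (chr10:78033848-78033877, plus strand): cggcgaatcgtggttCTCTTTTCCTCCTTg
RPS19 (chr19:41860240-41860269, plus strand): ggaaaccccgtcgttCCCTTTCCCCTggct
FAU (chr11:65122120-65122149, minus strand): cgccctcgcttcttcCTCTTTCTCgactcc

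Of the 56 listed genes, 48 had an entry in the RefSeq promoter table, and these are not the same 48 as were measured. Of the entries, 34 (70.8%) had a C followed by at least 4 pyrimidines exactly at the annotated start. Among all 27305 genes in the table the share was 4.04%. Allowing the tract to begin up to 5 bases away, it was found for 41 of the 48 (85.4%) and for 21.1% of all genes. In RPL10A it began 3 bases and in RPL32 2 bases downstream of the annotated start, and in RPL10 there was none at the annotated start, which says only that these letters are not in this window. Over each entry, from 250 bases before to 50 after the start, the letters CCGGAAG, the core bound by ETS factors, occurred on either strand in 37.5% of the ribosomal protein genes and 10.7% of all genes. For GGGCGG, the core of a GC box, the shares were 58.3% and 44.6%, and for TATAAA they were 8.33% and 12.0%. The tract can overlap CCGGAAG read on the opposite strand, where it ends in the letters CTTCC.

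The series asked which transcripts change with H1.3 overexpression. The gene of H1.3 itself, H1-3, read 8.65 and 7.88 (log2) with vector only and 7.47 and 7.69 on the arrays labelled H1.3, so the label was not borne out by this cluster (difference -0.69 ± 0.24 SE, limma adjusted p 0.319), and directions below refer to the labels. Of 10 ovarian epithelial carcinoma markers, EPCAM lay between 11.16 and 11.84, KRT8 between 12.80 and 13.13, and FOLR1 between 5.43 and 6.95. The 3 measured leukocyte markers lay between 3.13 (PTPRC) and 6.23 (CD14), the 3 endothelial markers between 4.87 and 5.36, and the 4 fibroblast markers between 3.20 (DCN) and 7.60 (COL1A1); no marker of these lists passed in limma. MECOM and FOLR1, both of the carcinoma list, fell in the arrays labelled H1.3, with differences of -1.58 and -1.26 (limma adjusted p 0.0266 and 0.0291), and the bearing of this on the results below was not tested. The median log2 level of the 21214 clusters with a symbol was 6.84 on each array. Over the 3253 of them with a mean of at least 9, the range where 41 of the 48 genes lay, the median was 9.80 on both vector-only arrays, 9.73 on H1.3 replicate 1 and 9.78 on H1.3 replicate 2.

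Ribosomal protein genes were slightly lower in the arrays labelled H1.3, by a small amount and nearly throughout. Of the 48 genes, 44 had a negative difference (H1.3 minus vector only, log2), with a median of -0.17, quartiles of -0.25 and -0.09, and a range from -0.61 for RPS25 to 0.30 for RPL10. Among all clusters tested 45.9% were negative, with a median of 0.02, and among those with a mean of at least 9 it was 55.4%, with a median of -0.03. For 31 genes both H1.3 arrays lay below both vector-only arrays, against 19.4% of all clusters tested and 29.8% of those with a mean of at least 9. For 2 genes both lay above, against 21.2% and 21.0%.

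No single gene passed. Of the 48, 0 were lower and 0 higher at an adjusted p under 0.05 in limma, where 0.264% of all clusters were called lower and 0.24% higher, and the smallest adjusted p was 0.188. At an unadjusted p under 0.05 in limma, 7 were lower and 0 higher, against 6.34% and 5.21% of all clusters. All 7 were among the 41 genes with a mean of at least 9. Of the 3253 clusters at that level, 296 were lower and 173 higher by the same threshold. The median standard error of the 48 genes' differences was 0.12. Leaving out H1.3 replicate 1 brought the median to -0.09 with 38 genes negative, and leaving out H1.3 replicate 2 brought it to -0.24 with 45 negative.

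**Figure D1:**
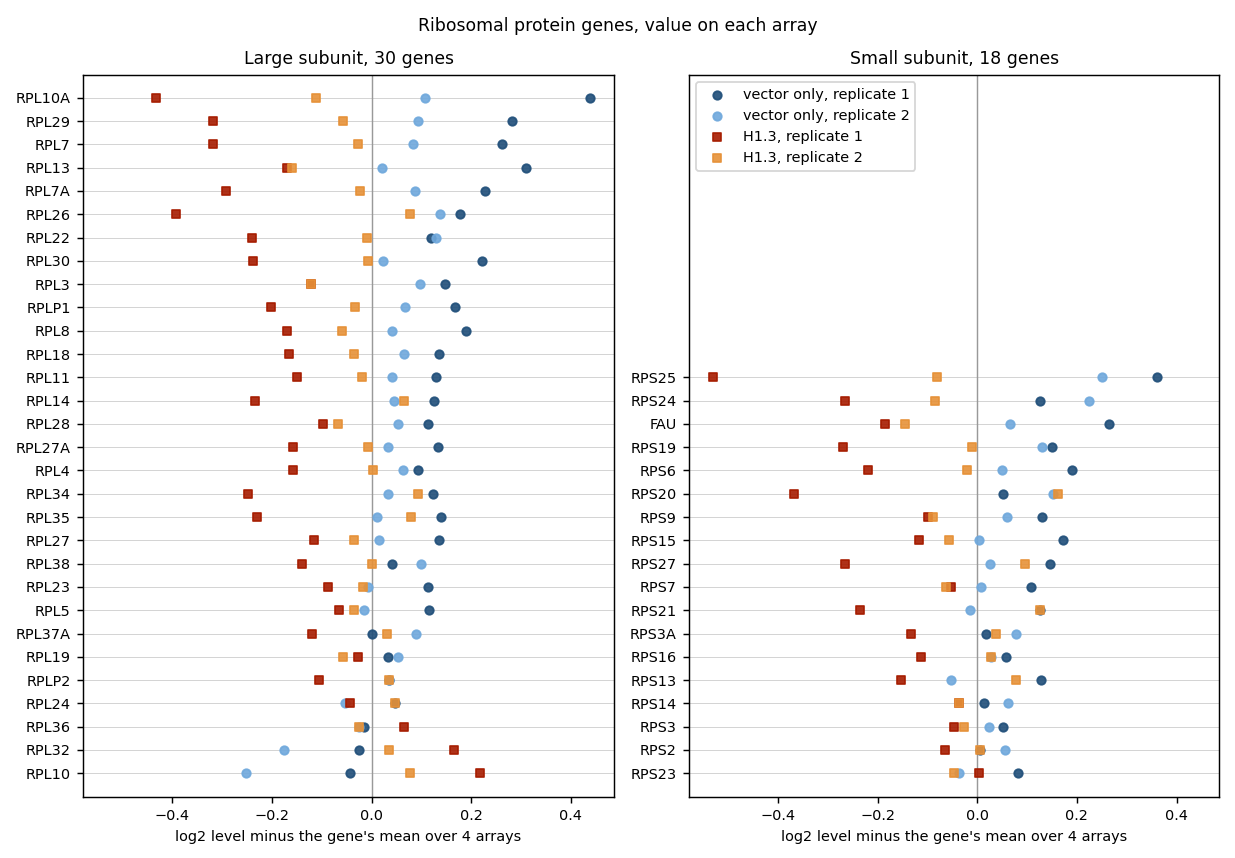
Log2 level of each of the 48 ribosomal protein genes on each of the 4 arrays, minus the gene's mean over the arrays, in the large (left) and small (right) subunit, ordered by the difference between groups; each point is 1 array. H1.3 replicate 1 (dark red squares) is the lowest array, ties included, for 41 genes, and for RPL10 and RPL32, at the foot of the left panel, both H1.3 arrays lie above both vector-only arrays.

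The 2 subunits had similar differences. The median difference was -0.17 over the 30 large subunit genes, of which 26 were negative, and -0.14 over the 18 small subunit genes, all negative. Both H1.3 arrays lay below both vector-only arrays for 21 large and 10 small subunit genes. The shares were 19.4% of all clusters tested and 29.8% of those with a mean of at least 9. The array with the lowest value, ties included, was H1.3 replicate 1 for 25 of 30 large and 16 of 18 small subunit genes, and the array with the highest value was vector-only replicate 1 for 23 and 13.

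Array by array, the same order appeared in both subunits. After subtracting each gene's mean over the 4 arrays, the median of the large subunit genes was 0.13 and 0.04 in vector-only replicates 1 and 2, and -0.16 and -0.02 in H1.3 replicates 1 and 2. For the small subunit genes these medians were 0.13 and 0.05 against -0.14 and -0.02. The groups did not overlap in either subunit, but H1.3 replicate 2 stood nearer to vector-only replicate 2 than to H1.3 replicate 1. Within groups the standard deviation of the array medians was 0.08 for the large and 0.07 for the small subunit.

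Set against each other, the 4 pairs of arrays from different groups all had a negative median, and its size depended on the pair. Over the 48 genes it was -0.29 for H1.3 replicate 1 minus vector-only replicate 1, with 45 genes negative, and -0.06 for H1.3 replicate 2 minus vector-only replicate 2, with 35 negative. The crossed pairs gave -0.21 (H1.3 replicate 1 minus vector-only replicate 2) and -0.13 (H1.3 replicate 2 minus vector-only replicate 1). Pairs from the same group also differed: vector-only replicate 1 exceeded replicate 2 by a median of 0.10, in 38 of 48 genes, and H1.3 replicate 2 exceeded replicate 1 by 0.14, in 40 of 48. The smallest difference between groups was thus below the difference between replicates in either group.

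These within-group shifts were partly shared with other abundant transcripts. Over all clusters with a mean of at least 9, H1.3 replicate 2 exceeded replicate 1 by a median of 0.06 and vector-only replicate 1 exceeded replicate 2 by 0.03, whereas the medians over all clusters tested were -0.02 and -0.01. When the arrays were set to one median of these bright clusters, the median of the ribosomal protein genes was -0.12, with 43 of 48 negative, and that of all clusters tested was 0.06. The part of RNA handling or of array processing in the order of the arrays was not tested.

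**Figure D2:**
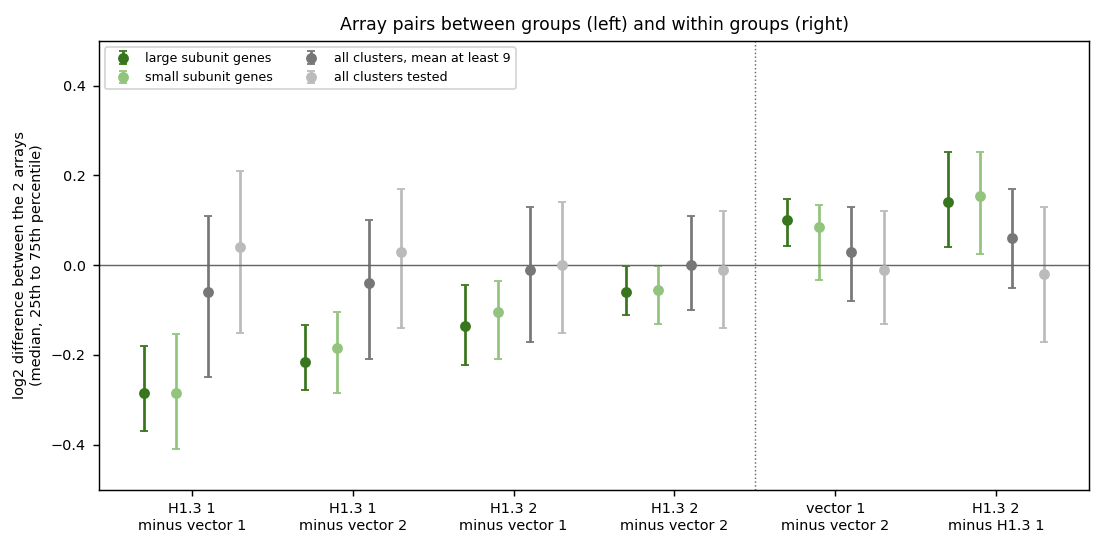
Log2 difference for each pair of arrays, 4 between groups (left of the dotted line) and 2 within groups (right), as the median (point) and 25th to 75th percentile (bar) over 30 large subunit genes, 18 small subunit genes, 3253 clusters with a mean of at least 9 and all 21214 clusters tested. The ribosomal protein medians run from -0.29 to -0.06 between groups. Within groups they are 0.10 and 0.14 for the large subunit and 0.085 and 0.155 for the small subunit.

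In the large subunit the widest difference was in RPL10A, a protein of the mobile L1 stalk that guides spent tRNA out of the ribosome. It read 11.19 and 10.86 (log2 level) with vector only and 10.32 and 10.64 on the arrays labelled H1.3, which differ by -0.55 ± 0.17 (SE, adjusted p 0.237). The groups did not overlap, and the gap between them, from 10.64 to 10.86, was smaller than the gap between the replicates of either group.

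RPL29, a small basic protein not found in bacterial ribosomes, measured 12.45 and 12.26 against 11.85 and 12.11, a difference of -0.38 ± 0.14 (SE, adjusted p 0.362). Its second cluster, at 9.90 and 9.83 against 9.35 and 9.63, gave the same -0.38. RPL7 had 3 clusters, whose differences were -0.35, -0.36 and -0.39. For both genes each cluster had both H1.3 arrays below both vector-only arrays, with H1.3 replicate 1 the lowest.

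RPL13 measured 10.66 and 10.37 against 10.18 and 10.19, and its second cluster 10.60 and 10.32 against 10.17 and 10.15, so here the H1.3 replicates coincided and vector-only replicate 1 stood high. RPL26, which lies at the exit of the peptide tunnel, measured 9.56 and 9.52 against 8.99 and 9.46. In RPL26 the difference of -0.32 came mostly from H1.3 replicate 1. RPL7A, with 11.36 and 11.22 against 10.84 and 11.11, also differed by -0.32, and the adjusted p of these genes lay between 0.415 and 0.55.

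The genes of the 2 proteins that bind 5S ribosomal RNA had small differences. RPL5 measured 13.11 and 12.98 against 12.93 and 12.96, a difference of -0.10, and its other clusters gave -0.11 and -0.12. RPL11 measured 11.72 and 11.63 against 11.44 and 11.57, a difference of -0.17. Both lay below the vector-only arrays on both H1.3 arrays by narrow margins.

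In the acidic stalk, which recruits translation factors to the large subunit, RPLP1 measured 12.29 and 12.19 against 11.92 and 12.09, a difference of -0.24 that its second cluster put at -0.27. RPLP2, its partner in the stalk dimer, measured 11.99 and 11.99 against 11.85 and 11.99, and the groups overlapped. Of the 3 stalk genes RPLP0 was without a cluster of its own.

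Of the other large subunit genes, RPL3, a protein that reaches to the peptidyl transferase centre, measured 12.55 and 12.50 against 12.28 and 12.28, with close replicates on both sides and a difference of -0.25 ± 0.11 (SE, adjusted p 0.475). RPL23 and RPL28, at -0.11 and -0.17, likewise had both H1.3 arrays lower, whereas RPL14 and RPL34 overlapped between groups, since H1.3 replicate 2 reached the vector-only level. RPL34 was at 0.02 without H1.3 replicate 1.

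The 4 large subunit genes with a positive difference were RPL10, RPL32, RPL36 and RPL24. RPL10, which joins the large subunit at the last step of its maturation, measured 10.92 and 10.71 with vector only and 11.18 and 11.04 with H1.3 by the labels. Its groups did not overlap, with a difference of 0.30 ± 0.13 (SE, adjusted p 0.455). RPL32 measured 7.96 and 7.81 against 8.15 and 8.02, a difference of 0.20 ± 0.12 (SE, adjusted p 0.62), again with no overlap. In both genes H1.3 replicate 1, the lowest array for most ribosomal protein genes, was the highest.

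RPL36, at 8.69 and 8.68 against 8.77 and 8.68, and RPL24, a protein of a bridge between the subunits, at 12.42 and 12.32 against 12.33 and 12.42, did not differ beyond their spread. Their differences were 0.04 and 0.01, and they changed sign when an array was left out (RPL36 to -0.01 without H1.3 replicate 1, RPL24 to -0.05 when vector-only replicate 2 was dropped and to -0.04 when H1.3 replicate 2 was).

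Clusters of RPL10 that the annotation also gives to other genes did not all follow. Those shared with the small nucleolar RNA SNORA70 alone gave 0.31 and 0.34. The brightest, shared with SNORA70 and DNASE1L1, measured 13.13 and 13.05 with vector only against 13.11 and 13.15, a difference of 0.04. The cluster shared with NDUFS5 as well gave -0.31. Introns of ribosomal protein genes carry many small nucleolar RNAs, and such clusters cannot be given to a single transcript.

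In the small subunit RPS25, a protein that many viral internal ribosome entry sites depend on, differed most. It read 12.00 and 11.89 (log2 level) with vector only against 11.11 and 11.56, and on its second cluster it was 9.88 and 9.63 against 8.64 and 9.19. The differences were -0.61 ± 0.17 and -0.84 ± 0.20 (SE), with adjusted p of 0.188 and 0.135. On both clusters the groups were apart, and the H1.3 replicates differed from each other more than the vector-only ones did.

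RPS24, a protein mutated in Diamond-Blackfan anaemia, measured 10.12 and 10.22 against 9.73 and 9.91, a difference of -0.35 ± 0.13 (SE, adjusted p 0.331). FAU, which encodes RPS30 fused to a ubiquitin-like peptide, measured 10.79 and 10.59 against 10.34 and 10.38, a difference of -0.33 ± 0.12 (SE, adjusted p 0.366). In FAU the H1.3 replicates were close to each other, and in both genes the groups were apart.

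RPS19, the gene most often mutated in Diamond-Blackfan anaemia, measured 10.42 and 10.40 against 10.00 and 10.26. RPS6, the protein phosphorylated by S6 kinase, measured 12.48 and 12.34 against 12.07 and 12.27. RPS9, which lines the mRNA entry channel, measured 12.12 and 12.05 against 11.89 and 11.90. Their differences were -0.28, -0.24 and -0.19, none of their groups overlapped, and adjusted p lay between 0.487 and 0.603.

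Several small subunit genes hardly differed. RPS3, a universally conserved protein of the mRNA entry site, measured 13.51 and 13.48 against 13.41 and 13.43, and RPS16 measured 13.24 and 13.21 against 13.07 and 13.21. RPS2 was at -0.06 and its other clusters at -0.06 and -0.08, and RPS23 at -0.05 was the smallest difference of the subunit. RPS27 measured 12.28 and 12.16 against 11.87 and 12.23, so that its difference of -0.17 came from H1.3 replicate 1 and was 0.01 without that array.

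Genes with several clusters gave a check of single values, as far as clusters of a gene and its processed pseudogenes can share sequence. Of the 16 such genes, 12 had differences within 0.1 of each other, among them RPS3A, whose 5 clusters ran from -0.13 to -0.10, and RPS7 at -0.12 and -0.14. In 13 genes every cluster was negative. The exceptions in direction were RPL24, RPL27A and RPS15. RPL27A measured 12.27 and 12.17 against 11.98 and 12.13 on its brightest cluster, a difference of -0.17, but 8.02 and 8.28 against 8.79 and 8.82 on another, a difference of 0.66 ± 0.13 (SE, adjusted p 0.101). Its remaining cluster was at 0.01. RPS15 was at -0.18 on its brightest cluster and 0.19 on the other, which lay at 5.68 to 6.03, below the median of the clusters tested. RPL13 had a further, dimmer cluster with a difference of -0.01.

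Groups of members by conservation or disease did not stand apart from the rest in their medians. Over the 21 measured proteins that also occur in bacterial ribosomes the median difference was -0.16, with 20 negative, and over the 27 others it was -0.17, with 24 negative. The 10 measured genes mutated in Diamond-Blackfan anaemia had a median of -0.17, all negative. Both H1.3 arrays were below for 8, against 19.4% of all clusters tested and 29.8% of those with a mean of at least 9. Across the 48 genes the difference had little correlation with the mean level (Pearson's r -0.115, Spearman's rho 0.03 over genes of the same 4 arrays). Over the 41 genes with a mean of at least 9 the median was -0.17, with 39 negative. Over the 7 dimmer genes it was -0.09, with 5 negative. Among measured genes with a promoter entry, the 30 with a tract exactly at the start and the 11 without one had medians of -0.17 and -0.16.

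Each gene was also set beside its expressed neighbours in RefSeq gene order, up to 15 on either side, leaving out other genes of the 56. For 41 genes all 30 were there, and the fewest were 22. The median of the neighbours lay below -0.2 for RPS25, RPS3 and RPL30 and above 0.2 for RPL24, RPS27 and RPS3A. For RPS25, on chromosome 11, the neighbours were at -0.48, so the gene differed from them by -0.14. RPS3, on the same chromosome, was at -0.08 among neighbours at -0.36. RPL24 was at 0.01 among neighbours at 0.29, RPS27 at -0.17 among neighbours at 0.25 and RPS3A at -0.10 among neighbours at 0.25. RPL10A was at -0.55 among neighbours at 0.00, and RPL10 at 0.30 among neighbours at 0.15.

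Over all 48 genes the median of the neighbours' medians was 0.03, and 43 genes were lower than their neighbours, by a median of -0.19. Without the 3 genes whose neighbours lay below -0.2, the median difference stayed at -0.17, with 41 of 45 negative. Differences of the ribosomal protein genes and of their neighbours were correlated across genes (Pearson's r 0.466, Spearman's rho 0.378, n = 48 genes sharing the same arrays).

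**Figure D3:**
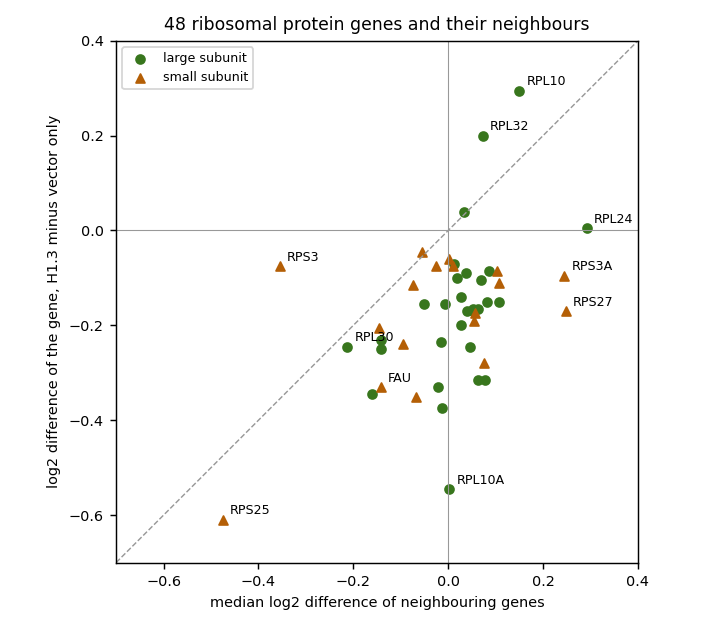
Log2 difference (H1.3 minus vector only) of each of the 48 ribosomal protein genes against the median log2 difference of its expressed neighbours, up to 15 on each side; the dashed line marks equal values. Of the genes, 43 lie below the line, RPS25 lies at -0.61 with neighbours at -0.48, and RPL10A at -0.55 with neighbours at 0.00.

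Ribosomal protein genes outside the list of 56 gave similar values. Of 23, 10 had a cluster of their own, and all 10 were negative, with a median of -0.24. Both H1.3 arrays were below for 9, against 19.4% of all clusters tested and 29.8% of those with a mean of at least 9. In limma 0 passed, and 1 was lower at an unadjusted p under 0.05, against 6.34% of all clusters. RPL23A, at the tunnel exit where the signal recognition particle docks, measured 11.79 and 11.69 against 11.17 and 11.37, a difference of -0.47 ± 0.13 (SE, adjusted p 0.185). RPS29 measured 7.39 and 7.35 against 6.76 and 7.21, a difference of -0.39. Of 8 paralogues, genes that encode alternative forms of a ribosomal protein, 6 were negative. RPL22L1, the paralogue of RPL22, was at -0.41 (7.15 and 7.14 against 6.79 and 6.69), RPL22 itself at -0.25 (8.59 and 8.60 against 8.23 and 8.46), and RPS27L at -0.41.

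Elongation factors and other genes whose mRNAs carry a TOP tract were lower by a similar amount. All 13 measured were negative, with a median of -0.17. Both H1.3 arrays were below for 10, against 19.4% of all clusters tested and 29.8% of those with a mean of at least 9. In limma 0 passed, and 2 were lower at an unadjusted p under 0.05, against 6.34% of all clusters. EIF3E, a subunit of initiation factor eIF3, was at -0.48 (10.59 and 10.62 against 9.87 and 10.38), EEF1D, an exchange factor of the elongation cycle, at -0.29 with both H1.3 arrays below, and EEF1A1, the factor that delivers tRNA, at -0.08. Of 14 genes that host small nucleolar RNAs 3 were measured, at -0.48 for EPB41L4A-AS1, -0.27 for ZFAS1 and -0.22 for SNHG29, all with the H1.3 arrays below.

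Genes that build, supply or regulate ribosomes had medians nearer to 0. The median was -0.02 over 58 ribosome biogenesis genes, 30 of them negative, and -0.02 over 27 initiation factors, 15 of them negative. It was -0.04 over 26 genes of RNA polymerases I and III, -0.05 over 21 mTORC1 and TOP regulators and -0.05 over 16 ribosome-associated factors. Over 73 mitochondrial ribosomal protein genes, which serve the separate ribosomes of the mitochondria, it was -0.08, with 54 negative. The proteasome, another abundant complex of many subunits, had a median of -0.04 over 28 genes, and 17 housekeeping genes had one of -0.10. Whether the ribosomal protein genes differ from these lists was not tested.

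No gene of the 12 related lists passed in limma. Those nearest to it were TAF1D, a subunit of the polymerase I selectivity factor that also hosts small nucleolar RNAs, at -0.86 ± 0.17 (SE, adjusted p 0.0982), and NMD3, the adaptor that exports the large subunit from the nucleus, at -0.64 ± 0.13 (SE, adjusted p 0.0985). Both passed with an intensity trend and robust moderation, at adjusted p of 0.0491 and 0.0344, a setting under which 1.15% of all clusters passed. The helicase gene DDX10 was at -0.59 and the mitochondrial ribosomal protein genes MRPL16 and MRPL20 at -0.62 and -0.48. EIF2B2 and POLR3C were at 0.50 and 0.54, and EIF2S2 at -0.49. On the list of mTORC1 and TOP regulators, DEPTOR and EIF4EBP1 were at -0.68 and -0.74. EIF4EBP1 had levels of 9.17 and 9.57 against 8.20 and 9.07, so its H1.3 replicates differed more than its groups did. NAA15 and ZNF598 were at 0.38 and 0.27, PSMA2 and PSMC6 at -0.39 and -0.30, and PPIA and GUSB at -0.38 and -0.35. Genes of the related lists were not set beside their neighbours, so whether nearby genes differed likewise is not given for them.

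**Figure D4:**
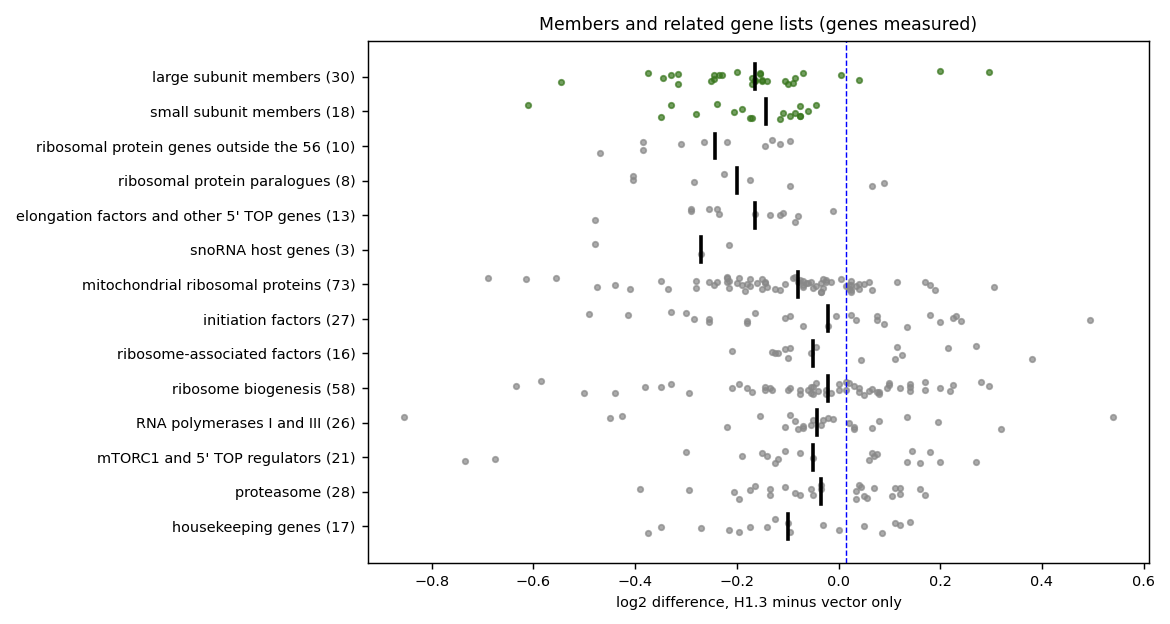
Log2 difference (H1.3 minus vector only) of each measured gene (points, spread vertically for legibility) in the large and small subunit (green) and in 12 related lists (grey), with the number of genes in parentheses; black bars are list medians and the dashed line is the median of all clusters tested, 0.02. The medians run from -0.27 for the 3 snoRNA host genes to -0.02, and those of the 2 subunits are -0.17 and -0.14.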

How the data were processed

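The deposited values are log2 expression of 33297 transcript clusters on each of the 4 arrays. Per the submitters' processing notes the tools were Affymetrix Expression Console and RMA; for version and build, not given in the sources used here. The series text names an exon array, whereas the annotation is for a gene array; symbols were used as the annotation gives them. RMA as published subtracts background, equalises array distributions and summarises probes, so a shift shared by most abundant transcripts could be reduced; single probes were not used here. Symbols came from the platform annotation, updated through gene identifiers to RefSeq GRCh38.p14 (19429 of 19460 single-symbol clusters matched); promoter sequences are RefSeq's, of the same assembly.

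Differences (H1.3 minus vector only) were fitted in limma 3.58.1 under R 4.3.3, by lmFit and eBayes with two-sided tests, over 21214 clusters with a symbol, with Benjamini-Hochberg adjustment and a threshold of 0.05; adjusted p-values in the text are from this fit. It had 2 residual and 5.16 prior degrees of freedom, and the number of arrays limits the precision. The same steps were tested on simulated data. Medians over gene lists have no test. Members and lists were chosen with earlier results of these data known. Genes named were the 6 widest differences per subunit among genes whose groups did not overlap, all positive members, the 3 highest and 3 lowest in level, those with several clusters, the stalk and 5S genes, and 2 genes of smallest p per related list; RPL3, RPL22, RPL30, RPS23, EEF1A1 and SNHG29 were added after their values were seen. Neighbours were single-symbol genes with a mean of at least the median of the clusters tested. Plots used Python 3.11.15 and matplotlib 3.10.9.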

Additional observations from a re-analysis of the deposited data

How the results depend on the processing

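The count of ribosomal protein genes passing was 0 in each direction in every alternative run that kept all arrays. This includes the run with every single-symbol cluster counted. At an unadjusted p under 0.05, an intensity trend with robust moderation gave 14 of 48 genes, against 12.3% of all clusters in that fit. Quantile normalizing again gave 6 (against 12.0%), and setting one median of bright clusters gave 5 (against 11.8%). Dropping clusters below the median level gave 8 (against 16.2%). Fitting all 33297 clusters of the value table gave 5 (against 8.93%), and the replicate block gave 3 (against 10.3%). Over all 33297 clusters only 4 passed, and with the replicate block 0 of 21214 did. A count of 0 ribosomal protein genes therefore says little in those runs. In the main fit 0.504% of all clusters passed, so a count of 0 of 48 lies near the share of all clusters there too. Each array was also left out in turn. Such a fit leaves 1 array in a group, so only its differences are given. Arrays at one median changed nothing, since the medians were already equal. The median difference stayed negative throughout, from -0.24 to -0.09 without each array in turn, where the group left with 1 array borrows the spread of the other; it was -0.14 after quantile normalization, -0.15 over every cluster and -0.19 relative to neighbouring genes. In the leave-one-out fits the large subunit ran from -0.24 to -0.10, the small subunit from -0.20 to -0.0725, and the large minus the small subunit, -0.0225 with all arrays, from -0.0425 to -0.0225. In these fits RPL36 ran from -0.005 to 0.085, RPL24 from -0.045 to 0.055, RPL34 from -0.325 to 0.015 and RPS27 from -0.35 to 0.01. With an intensity trend and robust moderation 2 of 299 genes of the related lists passed, against 0, while calls over all clusters went from 107 to 245 (1.15%); the cause was not tested.

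When replicate numbers entered the fit as a replicate block, the ribosomal protein genes' median was -0.17 and 0 of them passed in limma, as did 0 of all clusters (2195 at an unadjusted p under 0.05). Replicate 1 minus 2 correlated at 0.06 between the groups over all clusters, and no label ties equal numbers to a batch or day; the numbers are therefore treated as names only.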

Other observations

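Of the 8 listed genes without a cluster of their own, RPL6, RPL9, RPL13A, RPL37, RPS10 and RPS18 appeared on 12 clusters shared with other symbols, all negative with a median difference of -0.20, and RPLP0 and RPL15 on none. Over all ribosomal protein genes, including some that also have their own cluster, 36 shared clusters held no small nucleolar RNA. Of these, 33 were negative, with a median difference of -0.20. In limma 1 was lower at an adjusted p under 0.05, against 0.264% of all clusters tested. That cluster is annotated to both H19 and RPS12 and was at -3.18, whereas the cluster of RPS12 with the small nucleolar RNA SNORA33 was at -0.215. Which transcript the cluster of H19 and RPS12 reads was not tested. RPL9 and its pseudogene RPL9P11 shared 4 clusters at -0.27 to -0.28, RPL6 and RPL6P27 shared 2 at -0.18, and the cluster of RPL13A and its pseudogenes was at -0.25. RPS18 and RPS18P9 shared 3 clusters with identical values, 10.78 and 10.74 with vector only against 10.43 and 10.71 with H1.3 by the labels. The 3 positive clusters were all annotated to RPS26 with other genes, at 0.01 to 0.04.

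On 11 clusters that a ribosomal protein gene shared with a small nucleolar RNA, 7 were negative and the median was -0.03. SNORD24 with RPL7A was at 0.13, SNORD73A with RPS3A at -0.08 and SNORD68 with RPL13 at -0.02. The single-symbol cluster of RPL7A was at -0.32, and those of RPL13 were at -0.33, -0.30 and -0.01. Whether these clusters read the small nucleolar RNA, an intron or the mRNA was not tested.

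Genes outside the ribosomal protein lists with a tract exactly at the annotated start, examined after the results were seen, had a median difference of -0.07 over 151 genes with a mean of at least 9, of which 62.9% were negative. The 2141 other genes of that level had a median of -0.01, with 51.1% negative. Below a mean of 9 the medians were 0.02 over 468 genes with the tract and 0.03 over 11430 without it.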
